A study of Bos taurus with 8 samples.

Results

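The abomasum, the glandular stomach of the cow, was compared with 7 other tissues by RNA-Seq. Each tissue was represented by 1 library, so the abomasum was 1 of 8 libraries. The other libraries came from rumen, ileum, nucleated blood cells, mammary gland (mammary/parenchyma), uterus (intercaruncular), frontal cortex and whole testes. The study took its tissues from a Hereford cow, the animal of the cattle reference assembly, and from her progeny or relatives. The labels of the RNA libraries give no sex, age or animal. In the list of the matching methylation samples, abomasum, ileum, frontal cortex and mammary gland were from juvenile females, uterus and nucleated blood cells from adult females, whole testes from an adult male and rumen from a male fetus. Tissue and animal cannot be told apart in any comparison with the abomasum. If the RNA came from the same sources, sex or stage also differed from the abomasum in uterus, nucleated blood cells, whole testes and rumen. No treatment was given by the labels, and 0 libraries repeat a tissue, so every difference lacks a replicate check and no test between tissues was made.

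Values are FPKM, a level per transcript length and per mapped fragment in which the depth of the library is divided out. The loci described were those with an Ensembl transcript identifier and a span of at least 300 bases, which were 22808 of the 36801 loci of the table. Of these, 17422 reached 1 FPKM in at least 1 library and 3866 were listed at 0 in all 8. The depth recovered from the FPKM steps of short loci, on the scale of the authors' software, was 13341000 reads in abomasum and 6021000 to 15484000 in the other libraries. In the abomasum 1 FPKM on a transcript of 1000 bases stood for about 9.76 reads, and 3 reads, the most that a count of 0 allows, for 0.307 FPKM. Transcript lengths are not given, and on a short transcript a high FPKM can rest on few reads. Of the loci described, 7618 share their interval with another locus, which makes the division of reads between such loci uncertain.

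The abomasum is the acid-secreting compartment of the ruminant stomach and receives digesta from the forestomachs. Its surface cells secrete mucins and small protective peptides such as trefoil factors and gastrokines, its chief cells secrete pepsinogens and, in young calves, the milk-clotting enzyme chymosin, and its parietal cells secrete acid through a proton pump. Ruminants also secrete lysozymes in this organ, which act on bacteria that arrive with the digesta. The table gives no gene symbols. Of 24469 transcript identifiers, 0 were found in the RefSeq gene table, which belongs to the later assembly ARS-UCD2.0, so the tissue label could not be checked against marker genes by name. That RefSeq table holds 41 of 43 chosen marker symbols. It lists the trefoil factor genes TFF3, TFF2 and TFF1 next to each other on chromosome 1 and the gastrokine genes GKN2 and GKN1 next to each other on chromosome 11. The mucin gene MUC5AC and the pepsinogen gene PGA5 stand on chromosome 29, the pepsinogen gene PGC on chromosome 23, the chymosin gene CYM on chromosome 3, the proton pump gene ATP4A on chromosome 18, the secretory protein gene AGR2 on chromosome 4 and the lysozyme genes LYZ2 and LYZ3 on chromosome 5. For further gastric markers the RefSeq table gives the proton pump gene ATP4B on chromosome 12, the intrinsic factor gene CBLIF on chromosome 15, the endocrine genes GAST, GHRL and CHGA on chromosomes 19, 22 and 21, and SST and the potassium channel gene KCNE2 on chromosome 1. None of the loci below was assigned to any of these genes, because the builds differ. Loci are given by their UMD3.1 coordinates.

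A few very abundant loci held a large share of the summed FPKM of the abomasum. In total, 12667 loci reached 1 FPKM in abomasum, against 11187 in nucleated blood cells to 14465 in whole testes. At 100 FPKM or more there were 842, and at 1000 FPKM or more there were 91. The median of the expressed loci, 11.7 FPKM, lay within the range of the other libraries, which was 11.0 to 13.9 FPKM. The 10 most abundant nuclear loci held 20.9% of the summed FPKM, more than in any other library, where the share ran from 4.89% in whole testes to 17.0% in rumen. By other measures the rumen was more concentrated. There 79 loci held 50% of the summed FPKM, against 154 in abomasum, and the highest level was 53850 FPKM, against 22254 in abomasum. The number of loci at 1000 FPKM or more was also larger in rumen (166), ileum (116), nucleated blood cells (113) and mammary gland (103). With mitochondrial loci kept the abomasum share was 31.4%, but those loci, which cells of every tissue use, are listed at 0 in frontal cortex and rumen. A listed 0 in this table can thus be a failed estimate and does not show absence. The estimate was flagged as failed or overfull in any pair for 15 of the 22808 loci described. The 4 most abundant loci of the abomasum alone held 12.4%. These ranks are among loci with an identifier. A locus without one, on chromosome X from 148461497 to 148462918, was at 66583 FPKM in abomasum and listed at 0 in the 7 other libraries. Fewer cells of a type and less RNA per cell cannot be told apart in such tissue samples.

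Those 4 loci formed a pair on chromosome 1 and a pair on chromosome 11, with levels of 20994 to 22254 FPKM. The first locus on chromosome 1, from 144176745 to 144180011, was at 22254 FPKM in abomasum. Elsewhere it was at 30.6 FPKM in nucleated blood cells, 2.96 in whole testes and 0.476 in ileum, with 0 listed for the 4 remaining libraries. The second, from 144191000 to 144196766 (ENSBTAT00000065109), was at 20994 FPKM in abomasum, 1.61 in nucleated blood cells and 1.09 in ileum, and was listed at 0 in the 5 remaining libraries. Only the abomasum level was thus above 100 FPKM at either locus. On chromosome 11, the locus from 67283485 to 67291738 was at 22248 FPKM in abomasum and 3.62 in nucleated blood cells. Its neighbour from 67257758 to 67269135 (ENSBTAT00000022857) was at 21677 FPKM in abomasum and 3.39 in nucleated blood cells. Both loci on chromosome 11 were listed at 0 in the 6 remaining libraries. On the log2(FPKM + 1) scale the difference between abomasum and the highest other library was 9.46 and 12.97 for the pair on chromosome 1, and 12.23 and 12.27 for the pair on chromosome 11. In all 4 loci the next highest library was nucleated blood cells.

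Within the intervals taken around these pairs, the other loci were also highest in abomasum. Around the pair on chromosome 1, 4 loci stood in an interval of 175.9 kb that starts at 144.07 Mb, and these were all of the expressed loci there. The locus at its left end was at 878 FPKM in abomasum, 295 in ileum, 56.1 in mammary gland, 45.9 in uterus, 1.19 in whole testes and 0.163 in nucleated blood cells, with 0 listed for frontal cortex and rumen. This locus was therefore less restricted than the pair beside it. The locus at the right end was at 15.4 FPKM in abomasum and at most 0.154 FPKM elsewhere. Around the pair on chromosome 11, the remaining locus of an interval of 45.7 kb was at 199.8 FPKM in abomasum and at most 0.659 FPKM elsewhere. These 2 intervals were singled out after their values had been seen. Their ends are the outermost loci at least 2 above the median of the 7 others, so high levels at the ends follow from that rule.

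Among the 20 most abundant nuclear loci of the abomasum, which held 27.2% of its summed nuclear FPKM, 3 kinds could be told apart by their levels elsewhere. In 11 of the 20, the abomasum was at least 1 above the highest other library on the log2(FPKM + 1) scale, and in 9 of them at least 5 above. In 6 of the 20, another library was higher, which was nucleated blood cells for 3, ileum for 2 and rumen for 1. In the remaining 3 the abomasum was highest by less than 1. The locus on chromosome 19 from 49329691 to 49337996 is an example of an abundant locus shared by all libraries. Nucleated blood cells were at 22262 FPKM, abomasum at 16344, ileum at 13006, uterus at 12581, frontal cortex at 4049, whole testes at 2778, rumen at 1783 and mammary gland at 591. Abundance in the abomasum was thus not the same as restriction to it.

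**Figure D1:**
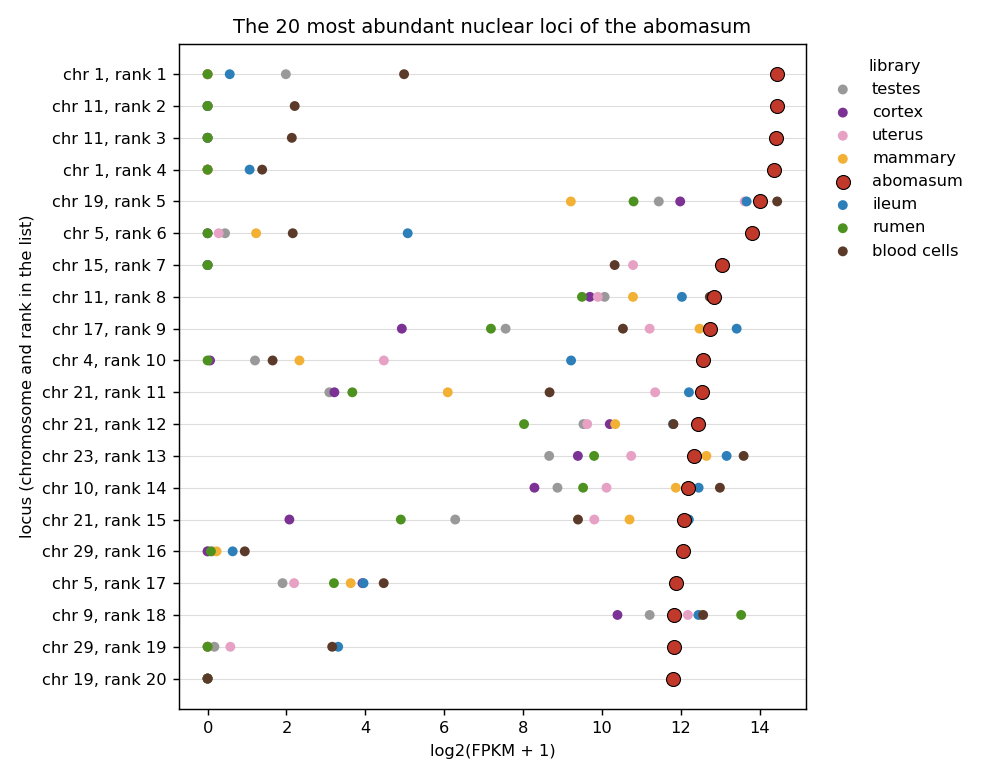
Levels of the 20 most abundant nuclear loci of the abomasum in each of 8 libraries, with log2(FPKM + 1) on the horizontal axis and 1 row per locus, named by chromosome and rank. Large red points are the abomasum library and small points the 7 others, each 1 library. The first 4 loci stand near 14.4 in abomasum and below 5 in every other library, whereas 6 loci are higher in another library.

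A further set of abundant loci lay in an interval on chromosome 5, from 44421169 to 44720998, that 10 loci of the table share. Of the 8 with an identifier, 6 were expressed, and they fell into separate patterns. The first was at 14336 FPKM in abomasum. In ileum it was at 32.7 FPKM, in blood at 3.47, in mammary gland at 1.35, in whole testes at 0.359 and in uterus at 0.216, with 0 listed for frontal cortex and rumen. Another was at 2921 FPKM in abomasum, 2.71 in ileum and 1.09 in nucleated blood cells, and a further one at 1008 FPKM in abomasum and 2.17 in ileum. These 3 loci were 8.73, 9.62 and 8.32 above the highest other library on the log2(FPKM + 1) scale. The other 3 went the opposite way. One was at 5.04 FPKM in abomasum and 4791 in ileum, another at 16.9 FPKM in abomasum and 1880 in nucleated blood cells. The last was listed at 0 in abomasum and stood at 845 FPKM in ileum and 3831 in nucleated blood cells. Because the coordinates are those of the whole interval, the order of the loci in it is not known, and reads of similar genes may have been divided unevenly between them.

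**Figure D2:**
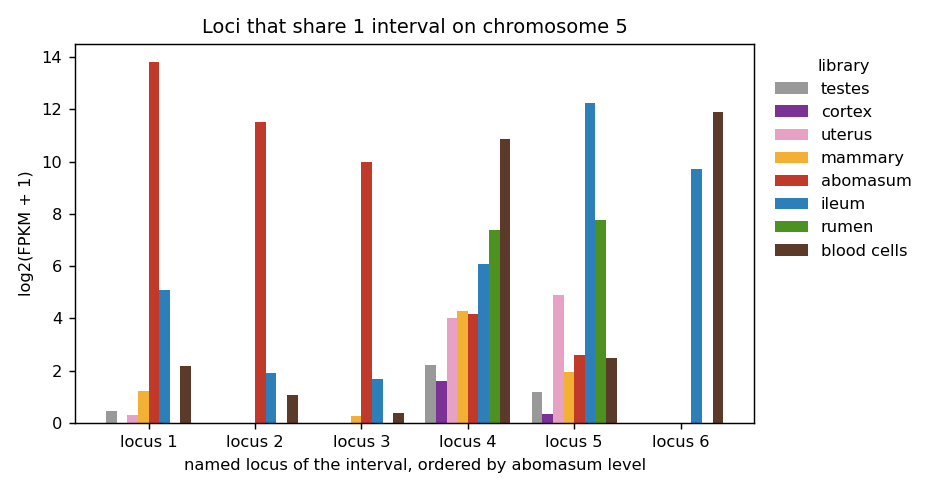
Levels of the 6 expressed loci with an identifier that share the interval on chromosome 5, as log2(FPKM + 1), with 1 bar per library starting at 0 and loci ordered by their abomasum level. Loci 1 to 3 are high in abomasum (14336, 2921 and 1008 FPKM), and loci 4 to 6 are highest in nucleated blood cells or ileum.

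Several intervals on chromosome 29 held abundant loci as well. In the interval from 51371105 to 51461985, the only 2 loci were at 4283 and 1216 FPKM in abomasum and at most 0.922 and 0.359 FPKM elsewhere, both of the latter in nucleated blood cells. The locus from 40456336 to 40466766 was at 3626 FPKM in abomasum, 8.93 in ileum, 7.93 in nucleated blood cells, 0.492 in uterus and 0.127 in whole testes, with 0 listed for frontal cortex, mammary gland and rumen. Another interval, from 47823536 to 47830168, held 2 loci at 239.8 and 32.1 FPKM in abomasum that were listed at 0 in the 7 other libraries.

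Further loci were high in abomasum on chromosomes 3, 8, 18, 19 and 23. On chromosome 18, the locus from 51827933 to 51837548 was at 1891 FPKM in abomasum, 3.29 in rumen, 2.47 in mammary gland and 1.88 in ileum, and below 1 FPKM in the other libraries. The locus on chromosome 8 from 349043 to 544502 was at 985 FPKM in abomasum and at most 0.146 FPKM elsewhere. On chromosome 23, the locus from 15559472 to 15568734 was at 563 FPKM in abomasum and at most 0.721 FPKM elsewhere. For 3 loci the 7 other libraries were all listed at 0. These were a locus on chromosome 19 from 25000944 to 25064462 at 3577 FPKM, another on chromosome 19 from 15087261 to 15090020 at 1181 FPKM, and one on chromosome 3 from 101815295 to 101819463 at 428 FPKM. The first of these shares its interval with a locus at 879 FPKM in abomasum, 144.7 in mammary gland and 0 listed elsewhere. All 3 share their interval with other loci of the table, so their levels are less certain than those of the pairs on chromosomes 1 and 11.

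An abundant locus on chromosome 4 was graded rather than restricted. From 25256264 to 25271426, it was at 6010 FPKM in abomasum, 594 in ileum, 21.2 in uterus, 4.02 in mammary gland, 2.13 in nucleated blood cells, 1.30 in whole testes and 0.0447 in frontal cortex, with 0 listed for rumen. The abomasum was 3.34 above ileum, and ileum was well above the remaining libraries. By contrast, the locus on chromosome 5 from 28576320 to 28637021 had a low level everywhere else. The abomasum was at 3777 FPKM, blood cells at 21.1, ileum at 14.5, frontal cortex at 14.2, mammary gland at 11.4, rumen at 8.21, uterus at 3.58 and whole testes at 2.73.

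To see how widely the abomasum differed from each tissue, loci with a difference of at least 2 in log2(FPKM + 1), that is 4-fold on the scale of FPKM + 1, were counted among the 17422 loci expressed in at least 1 library. The abomasum was nearest to ileum, with 492 loci higher in abomasum (2.82%) and 786 lower (4.51%). Against mammary gland 838 loci were higher (4.81%) and 567 lower (3.25%), against uterus 897 (5.15%) and 865 (4.96%), and against rumen 951 (5.46%) and 895 (5.14%). Against nucleated blood cells 1861 loci were higher (10.7%) and 1145 lower (6.57%), and against frontal cortex 1620 (9.3%) and 2015 (11.6%). The largest number lay below whole testes, 3332 (19.1%), with 1480 above (8.5%). The 7 comparisons share the abomasum library. Loci within 1 of the abomasum level made up 78.1% of the loci against ileum and 47.0% against whole testes. With a pseudocount of 0.1 instead of 1, the counts against ileum were 925 and 1671, those against mammary gland 1471 and 1402, those against uterus 1544 and 1851 and those against rumen 1919 and 1454. They were 3177 and 1681 against nucleated blood cells, 2529 and 2989 against frontal cortex and 2210 and 4518 against whole testes. The rumen, another part of the stomach, thus had larger counts than mammary gland with either pseudocount, while its order against uterus depended on the pseudocount.

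**Figure D3:**
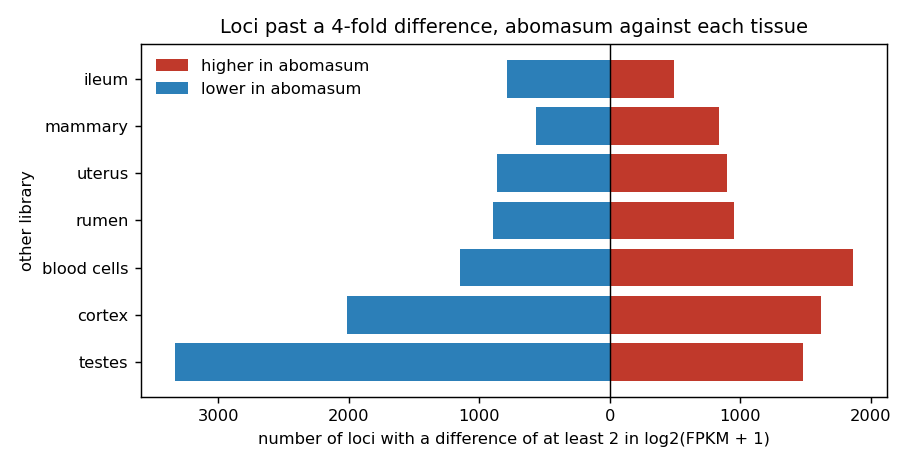
Number of loci with a difference of at least 2 in log2(FPKM + 1) between the abomasum library and each of 7 other libraries, with higher loci to the right (red) and lower loci to the left (blue) of 0. Ileum has the fewest loci in sum (492 and 786) and whole testes the most (1480 and 3332).

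Loci set apart from all other tissues were then counted. The abomasum was at least 1 above the highest of the 7 others, that is 2-fold on the scale of FPKM + 1, at 359 of 17422 loci (2.06%). The same rule gave 3157 loci in whole testes, 1338 in frontal cortex, 869 in nucleated blood cells, 587 in rumen, 332 in uterus, 239 in ileum and 192 in mammary gland. Most of the 359 loci differed moderately. Their median difference was 1.53, and 121 reached 2, 73 reached 3 and 38 reached 5. Their median level in abomasum was 38.4 FPKM, and 293 reached 10, 101 reached 100 and 19 reached 1000 FPKM. In sum they held 25.4% of the nuclear FPKM of the abomasum. Of the 359, 26 were listed at 0 in the 7 other libraries and 68 were below 1 FPKM in all of them. The count was 358 without loci whose estimate was flagged as failed or overfull. It was 236 when loci that share their interval with another locus were left out. Such sharing held for 34.3% of the 359 loci and for 32.2% of all expressed loci.

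Ileum was the library most often next to the abomasum. Of the 359 loci, 95 (26.5%) had their next highest level in ileum, 62 (17.3%) in uterus, 42 (11.7%) in mammary gland, 41 (11.4%) in rumen, 36 in whole testes, 34 (9.47%) in nucleated blood cells and 23 (6.41%) in frontal cortex. The remaining 26 (7.24%) were listed at 0 in the 7 others. Loci at which the abomasum and 1 other tissue were both at least 1 above the 6 remaining tissues numbered 129 with ileum, 94 with rumen, 69 with whole testes, 36 with nucleated blood cells, 32 each with uterus and mammary gland, and 29 with frontal cortex. These counts are out of 17422 expressed loci and take no account of how many loci are set apart in each tissue alone. By these counts the ileum and then the rumen shared more loci with the abomasum than the other tissues did. The order changed among the 19 loci at 1000 FPKM or more in abomasum. The next highest library was nucleated blood cells for 7 of them, ileum for 6, and uterus and rumen for 2 each, while 2 were listed at 0 in the 7 others.

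These 19 loci were followed in the other libraries. Above 0 were 17 in nucleated blood cells, 14 in ileum, 10 each in whole testes, uterus and mammary gland, and 6 each in frontal cortex and rumen. The median level, as a percent of that in abomasum, was 0.0295% in nucleated blood cells and 0.0926% in ileum, and at most 0.00218% in the other libraries. Frontal cortex and rumen are the libraries in which the mitochondrial loci are also listed at 0. The source of the low levels in nucleated blood cells was not tested.

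The 359 loci were spread over the genome. The share of expressed loci that belonged to them was 3.94% on chromosome 1 (27 of 685), 3.65% on chromosome 23 (19 of 520) and 3.47% on chromosome 6 (16 of 461), beside 2.06% over all chromosomes. It was lowest on chromosomes 20 (0.763%) and 28 (0.81%), each with 2 loci. Their span was similar to that of other loci, with a median of 30817 bases against 29089 bases for all loci expressed in abomasum. No test over chromosomes was made.

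To describe genomic clusters, loci were compared with the median of the 7 other tissues. The abomasum was at least 2 above this median at 839 loci (4.82%) and at least 2 below it at 156 (0.895%). A cluster was taken as at least 3 such loci that did not overlap, with gaps of at most 250 kb. By this rule there were 40 clusters of high loci on 17 chromosomes, with 147 loci (17.5% of the 839), and 1 cluster of low loci. The number of high clusters depended on the rule, with 24 at a gap of 100 kb, 61 at 500 kb and 10 at a difference of 3. In 7 clusters all expressed loci of the interval were high, among them the intervals around the pairs on chromosomes 1 and 11. Others of the 7 held 0 loci set apart from all other tissues. These lay on chromosomes 6 (from 86.68 Mb), 18 (from 48.77 Mb) and 21 (from 35.11 Mb). In that on chromosome 18, a locus was at 118.7 FPKM in abomasum and 1626 in rumen. The ends of every interval are high loci by the rule.

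The cluster with the most loci lay on chromosome 5 from 27.17 to 27.84 Mb, where 7 of 17 expressed loci were high against the median. Only 2 of the 7 were set apart from all other tissues. The locus from 27212092 to 27221179 was at 1620 FPKM in abomasum, 720 in ileum, 273 in mammary gland, 84.5 in uterus, 5.92 in whole testes, 4.54 in rumen, 0.851 in frontal cortex and 0.432 in nucleated blood cells. At the locus from 27171925 to 27175575 the abomasum was at 813 FPKM, mammary gland at 151, uterus at 84.8, ileum at 72.8, whole testes at 4.49, rumen at 1.92, frontal cortex at 0.750 and nucleated blood cells at 0.250. Both were graded across the tissues. A further pair of the cluster was low in abomasum in absolute terms. It was at 9.996 and 8.06 FPKM there, against 6942 and 4840 FPKM in rumen, and passed the rule only because the median of the other tissues was still lower. A similar case was the cluster on chromosome 19 from 42.37 Mb, which held a locus at 25.9 FPKM in abomasum and 23113 in rumen next to one from 42565344 to 42567655 at 197 FPKM in abomasum and at most 0.614 FPKM elsewhere.

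On chromosome 18 there were 2 of the 5 clusters ranked first by number of loci. Ties were ordered by summed difference to the median, and some clusters outside the 5 also held 5 loci. In the one from 55.64 to 55.83 Mb, 6 of 14 expressed loci were high, at 4 separate positions. Of the 6, 3 were set apart from all other tissues. The rest were higher in whole testes or rumen, such as 1 locus at 54.1 FPKM in whole testes and 6.49 in abomasum. The clearest of the 6 was the locus from 55828514 to 55833103, at 72.0 FPKM in abomasum, 4.71 in ileum, 2.69 in uterus and lower in the other libraries, down to 0 in nucleated blood cells. In the one from 51.83 to 52.32 Mb, 5 of 20 expressed loci were high and 3 of the 5 were set apart from all other tissues. The rest were higher in whole testes (107.7 against 3.27 FPKM in abomasum) or in rumen (1300 against 249 FPKM). Among those set apart was the locus at 1891 FPKM described above. Its neighbour from 51877254 to 51888120 was at 39.6 FPKM in abomasum, 3.21 in ileum and 1.48 in mammary gland, and below 1 FPKM in the other libraries.

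In the cluster on chromosome 21 from 71.45 to 71.60 Mb, abomasum and ileum had the highest levels of the abundant loci. Of 7 expressed loci 5 were high, and 0 of the 5 were set apart from all other tissues. At the most abundant, from 71453612 to 71475799, the abomasum was at 5907 FPKM, ileum at 4720, uterus at 2606, blood cells at 407, mammary gland at 67.1, rumen at 11.7, frontal cortex at 8.29 and whole testes at 7.50. The locus from 71594102 to 71596570 was at 4313 FPKM in abomasum, 4715 in ileum, 1661 in mammary gland, 894 in uterus, 671 in nucleated blood cells, 76.7 in whole testes, 28.8 in rumen and 3.21 in frontal cortex. That from 71488886 to 71496119 was at 1292 FPKM in abomasum, 2472 in ileum, 541 in blood cells, 139 in mammary gland, 27.0 in uterus, 10.1 in rumen, 5.46 in whole testes and 0.520 in frontal cortex. At these 3 loci abomasum and ileum lay within 1 of each other on the log2(FPKM + 1) scale, while rumen was at or below 28.8 FPKM. Another locus, which shares the interval of the first, was an exception at 5.71 FPKM in abomasum and 240.6 in ileum.

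Loci lower in abomasum than in all other tissues were few. The abomasum was at least 1 below the lowest of the 7 others at 40 loci (0.23%), against 3 loci in ileum, 12 in mammary gland, 27 in uterus, 86 in rumen, 281 in whole testes, 314 in frontal cortex and 964 in nucleated blood cells by the same rule. Their median level was 2.70 FPKM in abomasum and 8.68 FPKM in the lowest other library. On the log2(FPKM + 1) scale the median difference was -1.20 and 2 loci passed -2, but this scale limits how far a locus can lie below a low level. With a pseudocount of 0.1 the count was 98 instead of 40, and 10 of the 15 loci furthest below passed -2, the largest difference being -4.79. The count was 61 without whole testes, 66 without rumen and 98 without nucleated blood cells. Leaving a library out can only keep or raise this count. Without loci that share an interval the count was 14, while 32.2% of all expressed loci share one. At 5 of the 40 the abomasum was listed at 0. No locus at 10 FPKM or more in all 7 other libraries was listed at 0 in abomasum (0 loci).

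On the log2(FPKM + 1) scale the locus furthest below the others lay on chromosome 5 from 110921388 to 110925045 (ENSBTAT00000037671). The abomasum was at 5.64 FPKM, nucleated blood cells at 56.1, mammary gland at 64.3, ileum at 119.7, rumen at 119.7, uterus at 163, frontal cortex at 185 and whole testes at 473. The difference to the lowest other library was -3.11 on the log2(FPKM + 1) scale. Next came the locus on chromosome 16 from 70893555 to 70900751 (ENSBTAT00000008635), with a difference of -2.09. It was at 3.48 FPKM in abomasum, 18.1 in ileum, 20.8 in rumen, 27.0 in mammary gland, 28.3 in uterus, 47.4 in whole testes, 53.9 in nucleated blood cells and 149.5 in frontal cortex. Both loci were thus expressed in the abomasum at a low level rather than missing from it. At the locus on chromosome 11 from 99645086 to 99646294, the abomasum was listed at 0 and the 7 others ran from 2.66 FPKM in whole testes to 37.1 in nucleated blood cells.

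**Figure D4:**
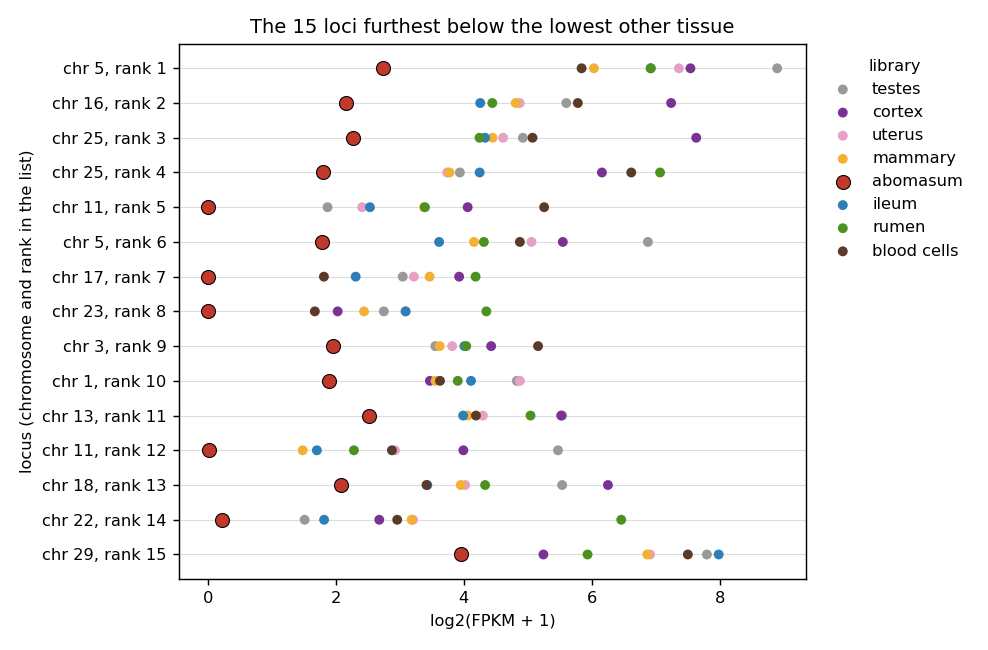
Levels of the 15 loci at which the abomasum lay furthest below the lowest other library, as log2(FPKM + 1) on the horizontal axis with 1 row per locus, named by chromosome and rank. Large red points are the abomasum library and small points the 7 others, each 1 library. The abomasum is leftmost in every row, with a difference of -3.11 in the first and of -2.09 or nearer 0 in the others.

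The single cluster of low loci lay on chromosome 17 from 74.92 to 75.04 Mb, where 3 of 14 expressed loci were low against the median. At the first, the abomasum (14.8 FPKM) and whole testes (14.6 FPKM) were lowest and the other libraries ran from 62.6 to 132 FPKM. The second was at 3.43 FPKM in abomasum and 6.46 to 43.8 FPKM elsewhere. The locus from 75036894 to 75038976 was listed at 0 in abomasum and mammary gland and ran from 71.1 to 314 FPKM in the remaining libraries. It shares its interval with another locus of the table, so the division of reads, and with it the listed 0, is uncertain. The rule asks for at least 3 loci, so the cluster depends on this uncertain locus. None of the 3 (0 of 3) was at least 1 below all other tissues. The cluster was no longer found (0 clusters) when libraries were rescaled or when whole testes, frontal cortex or rumen was left out, and 2 clusters were found without ileum or without nucleated blood cells.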

How the data were processed

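Total RNA from 8 cattle tissues was sequenced, with 1 library per tissue. According to the study, single-end reads were filtered for adapters, contamination and low quality, aligned to UMD3.1 with TopHat (TopHat2 2.0.13 in the submitters' processing notes) and quantified with Cufflinks at default parameters. The deposited FPKM values, which the authors' software scales between libraries, were taken from the table of all 28 pairs of tissues, and 0 loci had an FPKM that differed between pairs. The authors' columns of fold changes, test statistics, p-values and q-values hold their comparisons and were not used. Libraries were matched to tissues by name.

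Loci with an identifier and a span of at least 300 bases were kept. Differences were taken on log2(FPKM + 1), which understates those of low loci. Counts were made over loci that reached 1 FPKM in any library. With 1 library per tissue no test was run. Named loci were the 20 most abundant nuclear loci, and the 15 furthest above (at 10 FPKM or more) and the 15 furthest below all others. Also named were the loci of the 5 high clusters with the most loci (ties by summed difference) and of the single low cluster. The members, lists and rules were chosen with earlier results of these data known. Depth was recovered from unnamed loci of 88 to 130 bases, with fragments of 200 bases on average (SD 80, lower limit 87), as the smallest depth that made at least 95% of their values whole reads within 0.03. It is approximate for other loci. The reads carry no molecular identifiers, so the limit of 3 reads covers counting error only. Alternatives covered the pseudocount, filters, span, thresholds, a rescaling to a common median ratio, and each other library left out. Python 3.11.15 with pandas 2.3.3 and scipy 1.17.1 was used, and the counting functions were tested on simulated data.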

Additional observations from a re-analysis of the deposited data

Results flagged for a closer look

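Loci without an identifier were outside the comparisons above, and some of them carried signal in the abomasum. Among 9373 such loci of at least 300 bases, 2666 reached 1 FPKM in abomasum and 599 were at least 1 above all 7 other libraries on the log2(FPKM + 1) scale. The same rule gave 3407 in whole testes, 1108 in frontal cortex, 610 in nucleated blood cells, 393 in rumen, 265 in uterus, 110 in ileum and 64 in mammary gland. The most abundant of the 599, on chromosome X from 148461497 to 148462918, was at 66583 FPKM in abomasum and listed at 0 in the 7 others. Of the 599, 141 were listed at 0 in the other libraries and 72 lay within 5 kb of one of the 359 named loci set apart in abomasum. Among the shortest loci without an identifier, of 88 to 130 bases, 519 were above 0 in abomasum and 178 in rumen, while the 6 remaining libraries had 36 to 58. What these loci are was not tested.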

How the results depend on the processing

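Counts and shares within 1.5 times the reported value are given as holding. No paired analysis was possible because there was only 1 replicate of any tissue. Causes of changes were not tested, except for changes fixed by construction. Stricter thresholds admit fewer loci. Leaving a library out can only keep or raise the counts of loci above or below all others, so these could not fall. The count of expressed loci held under all 4 alternatives (9357 to 12685). The share of the most abundant loci was 36.1% for 50 loci and 31.4% with mitochondrial loci. Rescaling moved frontal cortex most (0.17 on the log2 scale) and abomasum by 0.02, and all pair counts held under it. Counts without a filter had to be the same, since a difference of 2 needs a level above the filter.

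A difference of 3 gave, for loci higher and lower than the other tissue, 661 and 2015 for testes, 761 and 1186 for frontal cortex, 398 and 355 for uterus, 390 and 239 for mammary gland, 227 and 268 for ileum, 433 and 386 for rumen, and 1003 and 615 for blood cells. With a pseudocount of 0.1, those higher were 2529 for frontal cortex, 1544 for uterus, 1471 for mammary gland, 925 for ileum, 1919 for rumen and 3177 for blood cells, and those lower 1851 for uterus, 1402 for mammary gland, 1671 for ileum and 1454 for rumen.

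Loci above all 7 others numbered 121 at a difference of 2, and 399 to 492 with each other library left out. Loci below all numbered 2 at a difference of 2, 98 with a pseudocount of 0.1 and 47 to 98 with each library left out. Without loci that share an interval, an alternative chosen after seeing the data, the counts were 236 and 14. High clusters numbered 24 at a gap of 100 kb, 61 at 500 kb, 10 at a difference of 3, and 33 to 50 with each library left out. Low clusters numbered 3 at 500 kb, 0 at a difference of 3, 0 after rescaling, 2 where overlapping loci were counted singly (chosen after seeing the data) and 0 to 2 with each library left out. Of 70 named loci, all kept their direction and 2 crossed their threshold after rescaling. Levels below 0.307 FPKM on a transcript of 1000 bases cannot be told from 0 in abomasum.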
